A study of Mus musculus with 23 samples.

Results

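The bone marrow expression libraries from Y665F mice were compared with those from wild-type (WT) mice, gene by gene and pathway by pathway, first on the counts summed over every cell of a library and then within lineages gated by marker genes. The members were chosen by title: 2 libraries labelled Y665F and 2 labelled WT, so 4 of the 23 samples in the series. The libraries are droplet single-cell RNA-sequencing of marrow from 2-month-old mice on a C57BL/6 background. Y665F mice carry phenylalanine in place of the tyrosine Y665 of STAT5B, introduced with CRISPR/Cas9 and a donor oligonucleotide in C57BL/6N zygotes. The WT mice carry the unedited gene. A further 2 marrow libraries came from Y665H mice of the same age and background, base-edited to histidine in place of that tyrosine. They also entered the low-count filter, the scaling, the gate scores, the length offset and the fits. Their own contrast with WT is not given here. The labels of these libraries give no zygosity and do not say whether the replicates are separate animals. Replicate 1 of each genotype carried Xist and replicate 2 carried Y-linked transcripts, so the replicates of a genotype came from different mice. The p-values measure the spread between these libraries. That spread holds any difference between the sexes, which cannot be told apart from replicate number, and part of it may be technical.

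STAT5B is a transcription factor that waits in the cytoplasm. When a cytokine such as erythropoietin, thrombopoietin, growth hormone, GM-CSF or interleukin-7 engages its receptor, JAK kinases phosphorylate STAT5, which pairs through its SH2 domain, enters the nucleus and binds palindromic sites of the form TTCNNNGAA. Its best known targets include feedback inhibitors of the SOCS family, which dampen the same receptors, and genes for survival and proliferation. The tyrosine Y665 lies in the SH2 domain, and in the marrow STAT5 signals support stem cells, erythroid precursors, megakaryocytes, granulocytes and early lymphoid cells.

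The edit is shown because it defines the groups. The lines below give the guide with its PAM in capitals (chr11:100787287-100787309 of GRCm38, plus strand), and then the reference and the donor over the same stretch of Stat5b (chr11:100787278-100787306, minus strand) with the codon of Y665 in capitals.
Guide: tgaggtaattcaggtcccccAGG
Reference: gggggacctgaatTACctcatatatgtgt
Donor: gggggacctgaatTTTctcatatatgtgt
That codon occupies chr11:100787291-100787293 in exon 16 of 19 of the Stat5b transcript, and the donor changes it from TAC, tyrosine, to TTT, phenylalanine. The donor of 133 bases differed from the reference at 2 positions, both in that codon. The methods also name a silent change in the donor, which the listed oligonucleotide does not hold. The libraries count transcripts and were not used to read the edited codon.

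After filters, WT replicates 1 and 2 held 4093 and 10296 barcodes and Y665F replicates 1 and 2 held 15656 and 15910. The 6 marrow libraries, including the 2 of Y665H, held between 15263490 and 42544399 unique molecular identifiers (UMIs). The median kept barcode had 1663 and 1731 UMIs in WT and 2210 and 2119 in Y665F. The lowest deposited barcode had 1179 UMIs in Y665F replicate 2 and 500 in each other library. The doublets removed made up 3.4% and 9.05% of WT and 14.7% and 15% of Y665F barcodes, shares set in advance by the barcode count and not measured. Pairs of libraries shared between 80 and 476 cell barcodes, 1.54% to 2.89% of the smaller library. Replicate 1 of each genotype carried Xist (692 CPM, counts scaled to library size and a common total, in WT and 826 in Y665F) and replicate 2 did not (0.0864 and 0.63), so replicate number and the sex read from the data moved together, the same way in both genotypes, although the methods speak of male mice. Precursor, lymphoid and megakaryocyte markers were present, but globin transcripts and mature neutrophil transcripts were scarce in the WT libraries for whole marrow: hemoglobin genes gave 0.00996% and 0.00732% of the WT UMIs. The labels and methods do not say whether mature cells were depleted.

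Each barcode was placed in a lineage where it carried that lineage's markers above all others. Of the gates with barcodes in every library the neutrophil gate differed most: it held 7 and 24 WT barcodes (0.171% and 0.233%) against 564 and 583 Y665F barcodes (3.60% and 3.66%), a log2 change of 4.11 ± 0.48 (SE, edgeR on barcode counts, adjusted p = 1.42e-05 over the gates). Early erythroid barcodes, marked by Klf1, Gata1 and Car1, made up 18.6% and 18.6% of WT but 6.81% and 3.34% of Y665F marrow (-1.88 ± 0.43, adjusted p = 0.00487). A smaller gate led by Hba-a1, Hbb-bs and Hba-a2 fell as well, from 1.27% and 1.62% to 0.37% and 0.503% (-1.74 ± 0.47, adjusted p = 0.00702). Its own hemoglobin transcripts were low (Hba-a1 at 1160 and 1050 CPM in WT), and Alas2 and Slc4a1 were near 0, so it is called here the Hba-a1/Hbb-bs erythroid gate and not a hemoglobin-rich one. Stem and multipotent barcodes, marked by Hlf, Mecom and Procr, rose from 2.96% and 1.95% to 6.64% and 5.81% (1.35 ± 0.38, adjusted p = 0.00811). Megakaryocyte barcodes, marked by Pf4, Itga2b and Gp9, rose from 2.81% and 2.61% to 6.82% and 6.87% (1.34 ± 0.36, adjusted p = 0.00702). The Y665F and WT libraries did not overlap in any of these 5 gates. They also did not overlap in the lymphoid-primed, granulocyte-monocyte, monocyte, basophil and mast, and T and NK gates, which did not pass the test. Non-overlap alone so sets none of the 5 apart.

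**Figure D1:**
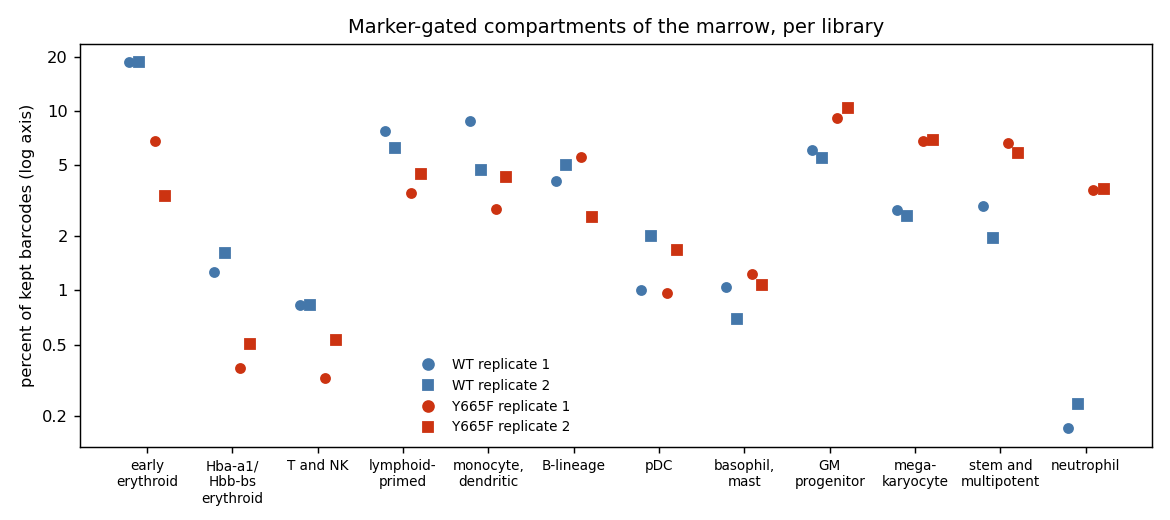
Share of kept barcodes in each marker gate (percent, log axis) in the 2 WT libraries (blue) and the 2 Y665F libraries (red), circles for replicate 1 and squares for replicate 2. Early erythroid shares sit at 18.6% in both WT libraries and at 6.81% and 3.34% in Y665F, and neutrophil shares at 3.60% and 3.66% in Y665F and under 1% in WT.

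Among the other gates large enough in both genotypes no share passed the test. Granulocyte-monocyte progenitors, marked by Mpo, Elane and Prtn3, went from 6.01% and 5.46% in WT to 9.07% and 10.4% in Y665F (log2 change 0.76, adjusted p = 0.0713). Lymphoid-primed progenitors, marked by Flt3 and Dntt, stood at 7.74% and 6.2% in WT and 3.47% and 4.42% in Y665F (-0.82, adjusted p = 0.0713), and T and NK barcodes at 0.83% in both WT libraries and 0.33% and 0.53% in Y665F (-0.95, adjusted p = 0.0727). B-lineage barcodes overlapped between the groups (-0.16, adjusted p = 0.718). A small gate scored on eosinophil markers held 0 and 0 WT barcodes, where a count of 0 allows up to 0.0733% and 0.0291%, and 17 and 14 in Y665F. This gate reached the barcode total needed for the edgeR share test only through Y665F, so it is given by its counts alone. Prg2, Prg3 and Epx led it together with the plasma cell genes Igkc, Ighm and Jchain and the basophil genes Prss34 and Mcpt8, so its leading genes do not bear out 1 cell type, and it is left unnamed. Many barcodes met no gate (44.6% and 50.1% in WT, 52.2% and 54.8% in Y665F), and shares are relative, so a rise of one cell type and a fall of another cannot be told apart. Without WT replicate 2 the stem (adjusted p = 0.125), megakaryocyte (0.0795) and Hba-a1/Hbb-bs (0.0545) changes no longer passed, and without WT replicate 1 the megakaryocyte change did not (0.051).

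Across whole marrow 13639 genes were tested with edgeR's quasi-likelihood test at an adjusted p under 0.05. Of these 2023 were higher (14.8%) and 2212 lower (16.2%) in Y665F, and 1088 and 1171 of them passed a log2 change of 1 as well. The shares of 14.8% and 16.2% are the background for every list count in whole marrow below. In summed counts fewer cells of a type and less RNA per cell cannot be told apart. Gate values are given beside some of the results below, and the others are of whole marrow alone. Scaling by total counts moved the median change of all genes up by 0.15 (log2) and gave 2198 higher and 1465 lower, so that the share of calls that were higher was 60.0% against 47.8%. Leaving out Y665F replicate 2 brought the 4235 calls to 1712 and leaving out WT replicate 2 brought them to 2506.

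The changes followed transcript length. The 20% of genes with the shortest transcripts (124 to 1725 bases) had a median log2 change of -0.38 with 176 higher and 764 lower, and the 20% with the longest (5037 to 123179 bases) had a median of 0.44 with 806 higher and 113 lower. The slope was 0.264 log2 units per doubling of length in whole marrow and lay between 0.154 and 0.306 in the 8 gates. Each library's own slope against the mean of the 6 libraries was 0.04 and -0.121 in WT, -0.129 and -0.115 in Y665H and 0.111 and 0.214 in Y665F, with an SD between replicates of 0.0956. Both Y665F slopes lay above both WT slopes, and a length trend from library preparation and one from the cells cannot be told apart here. With the trend removed by a length offset the test called 1589 genes higher and 1959 lower. Under that offset the medians of 21 of the 38 whole marrow lists moved by at least the SD between replicates. Offset values are given below for some lists only, and a list without one may have moved too.

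**Figure D2:**
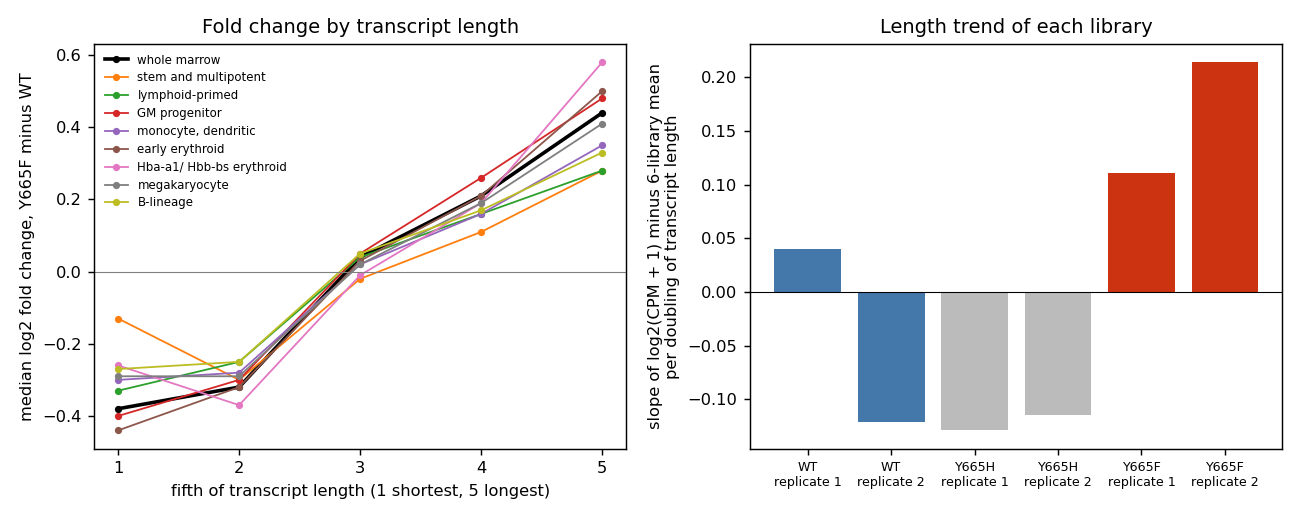
Left, median log2 fold change (Y665F minus WT) in 5 equal bins of transcript length for whole marrow and the 8 tested gates. Right, each library's slope of log2(CPM + 1) minus the 6-library mean per doubling of length. The whole marrow medians run from -0.38 to 0.44, and the Y665F bars (0.111 and 0.214) stand above the WT bars (0.04 and -0.121).

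The STAT5 target and feedback genes were higher in Y665F marrow as a group: 10 of 15 tested members rose and 2 fell (16 listed), with a median log2 change of 1.23 against 0.03 over all genes tested. Socs2, which restrains growth hormone and cytokine receptors, stood at 4.6 and 4.52 CPM in WT and 87.3 and 73.4 CPM in Y665F (log2 change 4.14 ± 0.23, adjusted p = 2.75e-08). Cish, a related receptor inhibitor, stood at 3.04 and 3.77 CPM against 23.4 and 22.8 CPM (2.76 ± 0.26, adjusted p = 6.04e-06). Both WT libraries lay below both Y665F libraries for each of them, a separation with an exact permutation p of 0.333 for 2 against 2. Pim1, a survival kinase, went from 50.2 and 40.5 to 146 and 128 CPM (1.60 ± 0.23, adjusted p = 0.000191), and its relative Pim2 from 3.56 and 3.2 to 16.4 and 9.7 CPM (1.95, adjusted p = 0.000298). Socs3 (0.919 and 1.93 against 6.93 and 6.42 CPM; 2.20) and Id1 (0.689 and 3.16 against 10.1 and 8.86 CPM; 2.27) rose too. The anti-apoptotic genes Mcl1 (26.7 and 31.1 against 54.5 and 81.3 CPM; 1.23, adjusted p = 0.00165) and Bcl2l1 (4.65 and 5.79 against 10.0 and 11.7 CPM; 1.06, adjusted p = 0.00547) were higher, the latter not without Y665F replicate 2.

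Not every target rose. Ccnd1, which encodes cyclin D1, fell from 12.8 and 13.4 to 2.51 and 5.18 CPM (-1.77, adjusted p = 0.000744), and Ccnd3 fell by 0.79 (adjusted p = 0.0191). Socs1 stood at 9.54 and 11.1 CPM in WT and 18 and 8.74 CPM in Y665F (0.37, adjusted p = 0.337), with 1 Y665F library on each side of WT. With the length offset the list had 9 higher and 3 lower and a median of 1.22, and with the gate shares set to the WT mean in every library its median log2 ratio was 1.19. Such share-held values, here and below, are log2 ratios of CPM + 1, which are smaller in size than fitted changes for low-count genes. Their CPM are also scaled by plain totals and not by TMM. A gap between share-held and fitted values is therefore not an effect of the shares alone. Stat5b itself rose from 22.4 and 20.7 to 34.9 and 43.7 CPM (0.87 ± 0.21, adjusted p = 0.00574; 0.52 with the length offset, adjusted p = 0.0372), a call that was lost without Y665F replicate 2. Stat5a, its close paralog, stood at 27.2 and 26.4 against 36.1 and 36.5 CPM (0.44, adjusted p = 0.102).

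Within the gates Socs2 was called higher in all 8 that could be tested, but in 5 of them both WT libraries lay under the low-count filter, so that it entered through Y665F and had to differ. These 5 are given by their values. In granulocyte-monocyte progenitors it went from 2 and 0.609 to 54.8 and 53 CPM, in monocyte and dendritic barcodes from 1.44 and 0.931 to 42.9 and 51.2 CPM, and in early erythroid barcodes from 1.39 and 0.867 to 18 and 27.1 CPM. Stem and multipotent barcodes carried more of it in WT, 14 and 40.7 CPM, against 273 and 144 CPM in Y665F. There WT replicate 2 alone passed the filter outside Y665F, so Socs2 needed Y665F to be tested and is given by its values too. It was 10.3 and 11.7 against 162 and 115 CPM in lymphoid-primed barcodes (3.64, adjusted p = 7.02e-07) and 55.3 and 28.2 against 213 and 144 CPM in B-lineage barcodes (2.19, adjusted p = 0.0275). Megakaryocyte barcodes held 7.24 and 14.1 against 65.4 and 69.6 CPM. In the Hba-a1/Hbb-bs gate it was at 0 in both WT libraries and at 103 and 47.4 CPM in Y665F. The B-lineage call was lost without WT replicate 2, and the gates come from the same 4 libraries, so they are not independent of each other. Pim1 passed in 5 gates, with log2 changes of 1.81 in granulocyte-monocyte progenitors and 1.73 in early erythroid barcodes, and did not in the stem (1.07, adjusted p = 0.202), lymphoid-primed (0.88, 0.103, and 0.0499 with the length offset) and B-lineage (1.07, 0.179) gates. Cish was called higher in 4 gates, but in the stem, early erythroid and megakaryocyte gates it too entered through Y665F. In granulocyte-monocyte progenitors WT replicate 1 alone passed the filter outside Y665F, so Cish needed Y665F to be tested there as well. It stood at 4.99 and 1.83 CPM in WT and 10.1 and 16.1 CPM in Y665F, a call lost without WT replicate 2 or Y665F replicate 2. Ccnd1 fell in the lymphoid-primed (-1.95), granulocyte-monocyte (-2.68), monocyte (-1.15) and early erythroid (-2.41) gates, and with any 1 library left out the call held in the granulocyte-monocyte gate alone. In the first 2 of these both Y665F libraries lay under the filter, which both Y665H libraries passed, so that it would have been tested without WT.

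**Figure D3:**
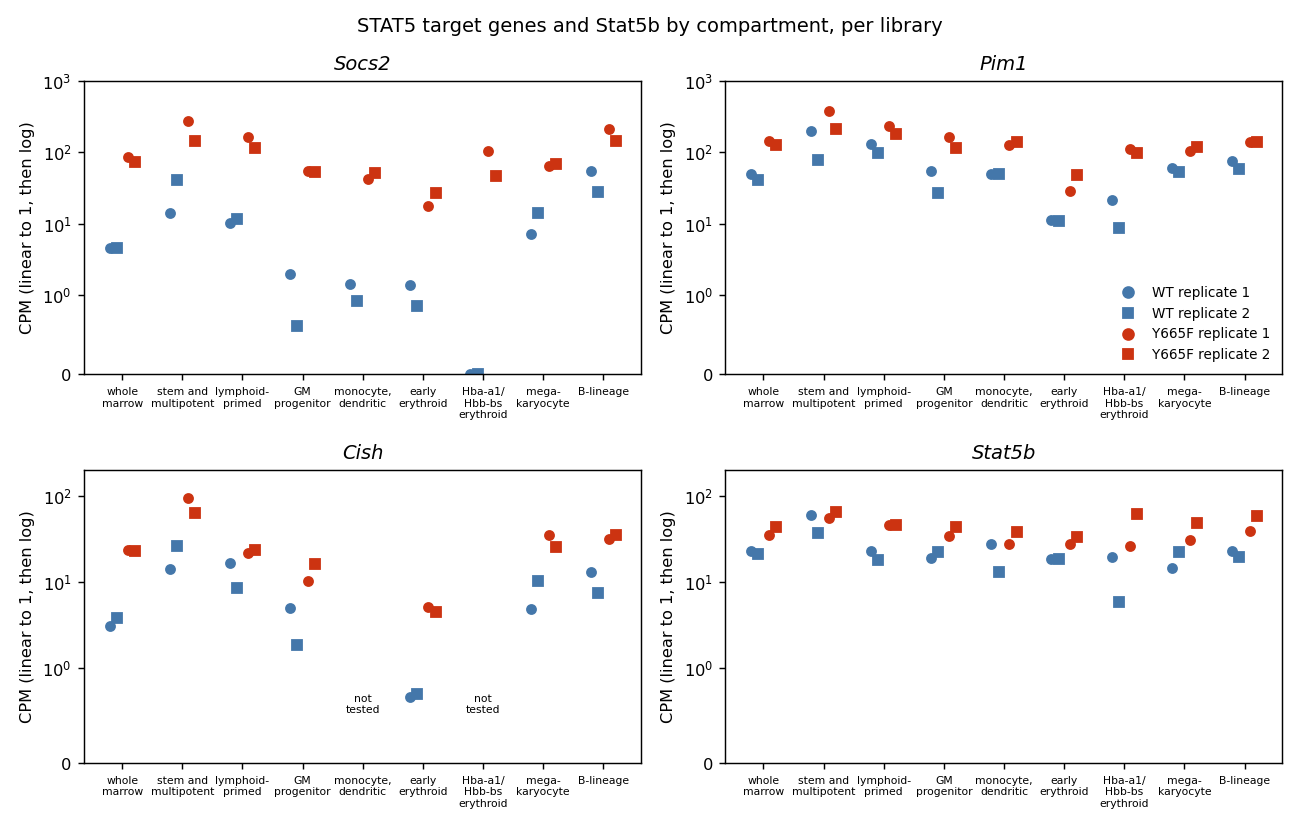
CPM of Socs2, Pim1, Cish and Stat5b in whole marrow and the 8 tested gates, 1 point per library (blue WT, red Y665F, circles replicate 1, squares replicate 2), on an axis that is linear to 1 and logarithmic above. For Socs2 both red points lie above both blue points in every gate, and Cish was too low to test in the monocyte and Hba-a1/Hbb-bs gates.

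Canonical STAT5 motifs in the promoter windows (250 bases before to 50 after a gene's start, RefSeq, GRCm38.p6) were about as frequent among called genes as among all genes tested. TTCNNNGAA, which reads the same on both strands, was present in 8.3% of all windows, in 8.74% of those of the genes called higher and in 7.52% of those called lower, against 8.24% of the tested genes. Of the 10 STAT5 list members with a window 2 held it, and these are shown with the motif in capitals: Cish, with adjoining matches at chr9:107296649-107296677 and chr9:107296660-107296688 (plus strand), and Socs3 at chr11:117969502-117969530 (minus strand).
Cish, first match: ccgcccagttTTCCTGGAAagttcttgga
Cish, second match: tcctggaaagTTCTTGGAAatctgtcaaa
Socs3: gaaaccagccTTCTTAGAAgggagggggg
A match is a run of letters and not a measured site, and no entry was given for Socs2, Ccnd1, Ccnd2, Myc, Osm or Id1.

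Upstream of STAT5 the receptors split. Of 19 tested cytokine receptor genes (20 listed) 7 rose and 6 fell. Csf2rb, the beta chain shared by the receptors for GM-CSF, interleukin-3 and interleukin-5, rose from 6.89 and 6.12 to 30.4 and 25.7 CPM (2.11), and its mouse relative Csf2rb2 from 1.72 and 1.18 to 4.76 and 3.07 CPM (1.44, adjusted p = 0.00634; not without WT replicate 2 or Y665F replicate 1). Epor, the erythropoietin receptor, fell from 39.2 and 30.4 to 12.7 and 9.54 CPM (-1.65, adjusted p = 0.000296), and Il7r, the receptor of early lymphocytes, from 23.3 and 25.5 to 14.3 and 11.4 CPM (-0.93, adjusted p = 0.00499; not without Y665F replicate 2). Among JAK, STAT and phosphatase genes 6 of 18 rose and 1 fell with a median of 0.45. Jak3 (8.16 and 8.53 against 19.3 and 16.9 CPM; 1.12) and Jak2 (17.5 and 15.7 against 25.8 and 35.1 CPM; 0.88) kept their calls under the length offset, while Stat3 (0.46, adjusted p = 0.0862) and Ptprc (0.39, adjusted p = 0.108) did not. Jak3 was not called without WT replicate 1, nor Jak2 without WT replicate 2 or Y665F replicate 2. Under the offset the list had 3 higher, 0 lower and a median of 0.20.

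Stem cell genes rose across whole marrow: 16 of 25 stem cell genes were higher and 0 lower, median 1.02 (17 higher and 1 lower with the length offset). Mecom, needed for stem cell maintenance, went from 3.85 and 3.49 to 14.7 and 20.1 CPM (2.25, adjusted p = 7.71e-05). Hlf, a factor of dormant stem cells, went from 20.5 and 27.5 to 61 and 94.6 CPM (1.70), and Gata2 from 28 and 37.4 to 81.6 and 101 CPM (1.48). For each the 2 groups of libraries did not overlap, a separation with an exact permutation p of 0.333 for 2 against 2. The surface and signaling genes Tie1 (2.87 and 2.17 against 13.7 and 14.3 CPM; 2.48), Esam (2.19) and Fgd5 (2.23) moved with them. Kit, the stem cell factor receptor, rose from 86.1 and 68.6 to 124 and 171 CPM (0.93, adjusted p = 0.00914; not without WT replicate 2 or Y665F replicate 2). Itga2b, the platelet integrin CD41, rose from 16.5 and 13.2 to 65.8 and 77.1 CPM (2.27), with Itgb3 (1.81) and Itga6 (1.72), and 9 of 22 adhesion and homing genes rose and 0 fell. Podxl, a sialomucin of stem and vessel cells, stood at 0.23 and 0.141 CPM in WT, too low to enter the test but for Y665F, and at 13.6 and 10.6 CPM in Y665F.

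Those rises accompanied the larger stem and megakaryocyte gates. Inside the stem and multipotent gate 0 of 8 tested stem cell genes passed (edgeR, median 0.07), where 0.403% of all genes tested were called higher, a share at which 0 of 8 says little about these genes, and with the shares set to the WT mean the whole marrow median was 0.72. In other gates, 9 of 18 tested were higher in granulocyte-monocyte progenitors (7.15% of all genes), 6 of 12 in monocyte and dendritic (2.86%), 8 of 14 in early erythroid (11.5%) and 9 of 10 in Hba-a1/Hbb-bs barcodes (11.6%), with 0 lower in each of the 4. Of those tested, 5, 2, 2 and 8 lay under the filter in both WT libraries and entered through Y665F, so these counts support no difference. Beside the last, the summed level of the 6 granulocyte-monocyte progenitor markers in the Hba-a1/Hbb-bs gate was 325 and 288 CPM in WT and 776 and 1210 CPM in Y665F, and the part of other cells' RNA was not tested.

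The erythroid program was lower. Of 23 tested globin and red-cell membrane genes (25 listed) 0 rose and 16 fell, median -1.29 and -1.50 with the length offset, and of 25 genes of heme synthesis and iron 1 rose and 15 fell, median -0.99. Car1, the carbonic anhydrase of erythroid precursors, went from 3120 and 4960 to 562 and 309 CPM (-3.21 ± 0.35, adjusted p = 3.28e-05). Rhd, a carrier of the Rh blood group, went from 130 and 123 to 16.4 and 11.4 CPM (-3.19), and Hba-a1, alpha globin, from 57.9 and 50 to 5.29 and 10.1 CPM (-2.81, adjusted p = 0.000174). Hba-a1 and Hba-a2 (-2.50) are near copies whose reads cannot be split with certainty. In the heme pathway the enzymes Alad (187 and 180 against 58.5 and 38.7 CPM; -1.91) and Uros (21 and 15.5 against 7.44 and 6.07 CPM; -1.43) both fell. The erythroid regulators Klf1 (101 and 81.6 against 29.2 and 20.9 CPM; -1.86), Gata1 (91 and 80.3 against 30.9 and 29.1 CPM; -1.51) and Gfi1b (45.8 and 35 against 18 and 12.9 CPM; -1.39) fell, while Runx1, a regulator of stem cells and megakaryocytes, rose from 80.5 and 53.4 to 148 and 172 CPM (1.26).

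The fall in whole marrow stood beside smaller erythroid gates, and with shares set to the WT mean the medians were -0.26 for globins and membrane genes and -0.42 for heme and iron. Inside the early erythroid gate 8 of 23 heme and iron genes fell and 2 rose, where 14.8% of all genes were called lower and 11.5% higher. Alad (-1.32, adjusted p = 0.00205), Rhd (-1.82) and Hba-a1 (35.8 and 22.8 against 10.1 and 15.3 CPM; -1.29, adjusted p = 0.00458) were lower there, though Hba-a1 was not called without WT replicate 1 or under the length offset. The gate's own markers, such as Klf1, Gata1 and Car1, chose its barcodes and are no result within it.

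Neutrophil genes showed the largest median of the 38 lists. Of 18 later granule genes 16 rose and 0 fell, with a median of 4.30 (4.43 with the length offset), although 2 of the 18 were below the filter in both WT libraries and could enter only through Y665F. S100a9 and S100a8, the calprotectin subunits, went from 8.9 and 24.7 to 1030 and 445 CPM (5.45 ± 0.48, adjusted p = 3.97e-06) and from 10.6 and 28.5 to 856 and 397 CPM (4.99). Ltf, lactoferrin, went from 0.46 and 1.22 to 43.9 and 15.1 CPM (5.08), Camp, cathelicidin, from 4.88 and 23.4 to 545 and 225 CPM (4.76) and Lcn2, an iron-scavenging lipocalin, from 0.804 and 2.69 to 74.1 and 19.9 CPM (4.71). Y665F replicate 1 was above replicate 2 in each, and both were far above WT. Retnlg (4.33), Chil3 (4.66) and Wfdc21 (4.27) belonged to the same set of highest genes. Cxcr2, the neutrophil chemokine receptor, rose from 1.09 and 1.27 to 3.88 and 2.86 CPM (1.50, adjusted p = 0.00455; not without Y665F replicate 1).

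The primary granule genes, made earlier in the lineage, did not follow. Of 10 tested 3 rose and 2 fell, median 0.22. Mpo, myeloperoxidase, stood at 378 and 300 CPM in WT and 459 and 523 CPM in Y665F (0.53, adjusted p = 0.121), and Elane, neutrophil elastase, at 478 and 823 against 757 and 574 CPM (0.03, adjusted p = 0.948), where the groups overlapped. With shares set to the WT mean the later granule median was 0.82 as a log2 ratio of CPM + 1, a measure unlike the fitted median. S100a9 and Camp were called higher in all 8 gates, but both WT libraries lay under the low-count filter in 5 of them for S100a9 and in all 8 for Camp. In the megakaryocyte gate WT replicate 1 alone passed it for S100a9 outside Y665F, so the gene needed Y665F to be tested there too. In the B-lineage gate S100a9 stood at 3.25 and 2.96 against 117 and 60.9 CPM. The summed level of the 8 neutrophil markers was 35.6 and 121 CPM in WT whole marrow against 3020 and 1220 CPM in Y665F, 13 and 19.3 against 376 and 234 CPM in B-lineage and 4.86 and 6.36 against 71.5 and 82.7 CPM in early erythroid barcodes. Over the 8 gates the sum ran from 4.86 to 73.9 CPM in WT and from 71.5 to 376 CPM in Y665F, with between 5 and 8 of the 8 markers higher in both Y665F libraries. Neutrophil RNA so moved with genotype in every gate, and its part in other results within gates was not tested.

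Eosinophil, basophil and mast cell genes rose without a fall: 7 of 12 tested (20 listed), median 1.56, with 2 below the filter in both WT libraries. Prg2, the eosinophil major basic protein, had the largest change in whole marrow under the naming rule, from 0.115 and 0.989 to 103 and 42.7 CPM (6.95 ± 0.52, adjusted p = 7.75e-07). Prg3 stood at 0.172 and 0.0942 against 4.02 and 2.06 CPM. Il4 (0.977 and 2.97 against 13.3 and 9.44 CPM; 2.50) rose as well. Epx, eosinophil peroxidase, was at 0 in both WT libraries and at 1.94 and 0.492 CPM in Y665F. Of 15 monocyte and macrophage genes (20 listed) 3 rose and 2 fell, median 0.06.

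MHC class II and T and NK genes were lower. Class II had 0 of 10 higher and 8 lower, median -1.07: Cd74, the invariant chain, went from 260 and 392 to 89.1 and 57.4 CPM (-2.15), and H2-Aa from 50.9 and 92.9 to 24.1 and 23.9 CPM (-1.58). Of 15 T and NK genes (20 listed) 0 rose and 9 fell, with the chemokine Ccl5 at 48.7 and 51.3 against 17.4 and 12.2 CPM (-1.76, adjusted p = 0.000105), and 3 of the 15 were below the filter in both Y665F libraries. Of 18 B-lineage genes 1 rose and 5 fell. Dntt, which adds bases to antigen receptor joints, fell from 112 and 153 to 56.7 and 68.5 CPM (-1.08), and Rag2 from 4.83 and 6.74 to 2.99 and 2.25 CPM (-1.14, not without WT replicate 2 or Y665F replicate 2). Cd79a, a chain of the B-cell receptor, overlapped between the groups (21.1 and 48.3 against 35.7 and 17.8 CPM; -0.38, adjusted p = 0.435). With the shares held at the WT mean the class II median was -0.78 and the T and NK median -0.44.

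MHC class I and antigen processing genes stood near the background, with 2 of 20 higher and 0 lower, median 0.25. Interferon-induced genes were 9 higher and 1 lower of 28 tested (30 listed), median 0.58 and 0.68 with the length offset. The antiviral Rsad2 rose from 3.33 and 2.03 to 8.87 and 8.29 CPM (1.69), Ifi44 from 7.53 and 4.57 to 16 and 19.2 CPM (1.55) and the GTPase Gbp2 from 3.56 and 4.85 to 11.7 and 12.3 CPM (1.50). Irf7, a factor abundant in plasmacytoid dendritic cells, fell from 26.3 and 18.4 to 11.4 and 6.79 CPM (-1.29, adjusted p = 0.0126; not without WT replicate 1 or Y665F replicate 2). NF-kB and inflammatory genes were 8 higher and 0 lower of 20. Immediate early genes, which respond fast to growth factors, were 8 higher and 2 lower of 25. Egr1 went from 16.8 and 45.5 to 74.1 and 160 CPM (1.90) and Btg2 from 7.64 and 16.2 to 27.3 and 43.8 CPM (1.57), each with replicate 2 above replicate 1 in both genotypes, and Ier2 from 150 and 468 to 111 and 96.6 CPM (-1.58, not without WT replicate 2).

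**Figure D4:**
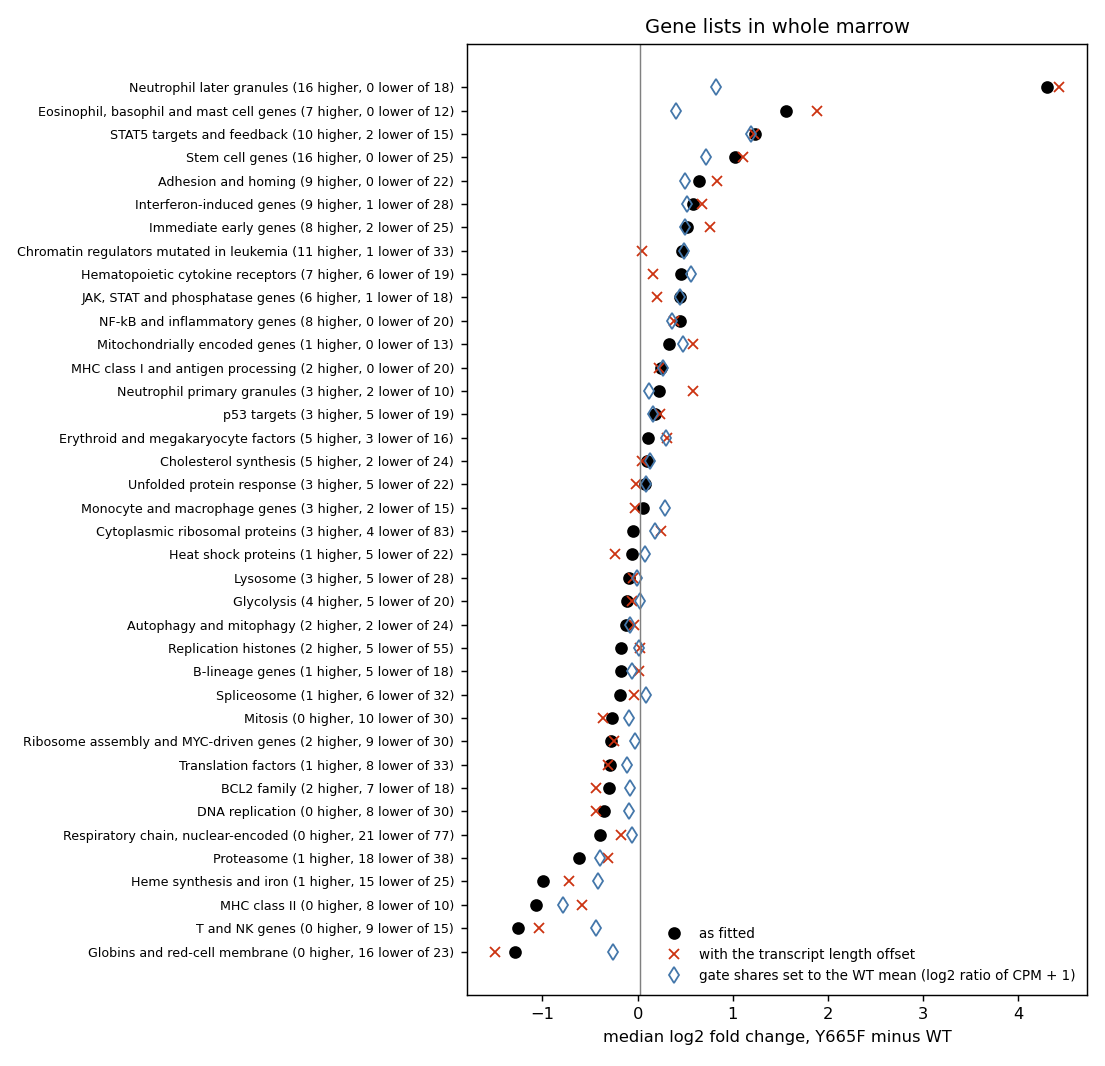
Median log2 change (Y665F minus WT) of the tested members of 38 gene lists in whole marrow, as fitted (black), with the length offset (red) and as the log2 ratio with gate shares set to the WT mean (blue). The grey line is the median of all genes tested, 0.03. Later granule genes sit at 4.30 as fitted and at 0.82 with shares held, while STAT5 targets sit at 1.23, 1.22 and 1.19 under the 3. The blue values use CPM + 1, which makes them smaller in size for low-count genes, and plain totals without TMM. Their gap from the black values is not from the shares alone.

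Proliferation genes were lower in part. Of 30 DNA replication genes 0 rose and 8 fell, median -0.35 (12 lower, -0.44 with the offset), and of 30 mitosis genes 0 rose and 10 fell, median -0.27. Rrm2, the small subunit of ribonucleotide reductase, went from 216 and 224 to 32.4 and 35.3 CPM (-2.70) and was called lower in 7 of the 8 gates, and Gins2, part of the replicative helicase, went from 71.5 and 104 to 31.6 and 22.4 CPM (-1.70). Ccnb2, cyclin B2 (101 and 133 against 32.1 and 28.7 CPM; -1.95), the centromeric histone Cenpa (-1.55) and the mitotic kinase Cdk1 (70.8 and 95.8 against 33.5 and 36.3 CPM; -1.25) fell. With shares held both medians were -0.09, and that of all genes tested was 0.09. In the megakaryocyte gate, where 2.33% of all genes were called higher, 4 of 29 mitosis genes were higher and 0 lower, and 7 of the 29 entered through Y665F. Of these Cenpf and Mki67 lost their call under the length offset and Ube2c without WT replicate 1, WT replicate 2 or Y665F replicate 2, and the gates were not tested against each other.

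Proteasome and nuclear-encoded respiratory chain genes were lower as well, less so with the length offset. Of 38 proteasome genes (39 listed) 1 rose and 18 fell, median -0.62, with 11 lower and a median of -0.31 under the length offset. The ATPase subunits Psmc2 (94.4 and 101 against 34.6 and 25.9 CPM; -1.69) and Psmc5 (179 and 256 against 77.6 and 61.4 CPM; -1.64) led it. Of 77 nuclear-encoded respiratory chain genes 0 rose and 21 fell, median -0.40 and -0.18 with the offset, led by Sdhb, the iron-sulfur subunit of complex II (354 and 597 against 162 and 94.7 CPM; -1.89), and Cyc1, cytochrome c1 (-1.72). The 13 mitochondrially encoded genes had 1 higher, mt-Atp8 (40.8 and 24.6 against 99.4 and 114 CPM; 1.71). In glycolysis 4 of 20 rose and 5 fell: Gapdh went from 1050 and 1250 to 339 and 334 CPM (-1.77), Aldoa fell by 2.36, and Aldoc, its brain-type relative, rose from 0.804 and 1.37 to 4.61 and 4.17 CPM (2.00). Eif5a, a translation factor, went from 1680 and 2360 to 549 and 332 CPM (-2.20), and 8 of 33 translation factors fell and 1 rose.

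Cytoplasmic ribosomal protein genes stood near 0, with 3 of 83 higher, 4 lower and a median of -0.05, which became 12 higher, 2 lower and 0.25 under the length offset. Rps9 rose from 1550 and 1370 to 2830 and 3370 CPM (1.09) and Rpl29 fell from 2790 and 3550 to 1640 and 898 CPM (-1.32), both not without Y665F replicate 2. Many ribosomal genes have near-identical pseudogenes, so their single values are uncertain. Chromatin regulators mutated in leukemia, with long transcripts (median 6941 bases), were 11 higher and 1 lower of 33, median 0.47, but 2 higher, 1 lower and 0.05 with the offset. Dnmt3b, a DNA methyltransferase, kept its call (15.1 and 15.8 against 31.2 and 37 CPM; 1.14, and 0.92 with the offset). Tet1 (1.16, then 0.54, adjusted p = 0.0607), Kmt2d (1.01, then 0.36), Kmt2a (0.95, then 0.34) and Crebbp (0.95, then 0.40) did not.

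The other lists held calls in both directions. Cholesterol synthesis had 5 higher and 2 lower of 24, the unfolded protein response 3 and 5 of 22 (23 listed), heat shock proteins 1 and 5 of 22, p53 targets 3 and 5 of 19 (20 listed), the BCL2 family 2 and 7 of 18 (19 listed), the spliceosome 1 and 6 of 32, the lysosome 3 and 5 of 28, autophagy and mitophagy 2 and 2 of 24, ribosome assembly and MYC-driven genes 2 and 9 of 30, and replication histones 2 and 5 of 55 (67 listed). Their medians lay between -0.30 and 0.18.

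The gates differed in how many genes could be called, as they did in barcodes, and each had fewer calls by over 1.5 times without Y665F replicate 2 (16 to 1208 calls across the 8 gates) or without WT replicate 2 (8 to 1058). The low-count filter asked for 2 of the 6 marrow libraries, Y665H included. Genes that lay under it in both libraries of 1 genotype, and that Y665H alone would not have brought in, had to differ. They are given by their values alone, except Pkm in the Hba-a1/Hbb-bs gate, whose fitted change is also printed further below. A gene with only 1 WT library over the filter may have needed Y665F too, and not every named gene was checked for this. In the stem and multipotent gate 20 of 4965 genes were higher (0.403%) and 44 lower (0.886%). Besides Socs2 and neutrophil genes the highest under the naming rule, which leaves out genes named Gm, was mt-Atp8 (35.1 and 44.4 against 153 and 179 CPM; 2.06), and the lowest was Slc16a11, a monocarboxylate transporter (24.6 and 25.9 against 3.69 and 2.35 CPM; -2.97), which Y665H brought past the filter and no fit without a library called. Neither was called under the length offset. Ier2 fell there as in whole marrow, from 506 and 1260 to 214 and 181 CPM (-2.15), and in both not without WT replicate 2. In the lymphoid-primed gate 166 of 8835 were higher (1.88%) and 341 lower (3.86%). Tie1, a receptor of vessel and stem cells, was at 0 in both WT libraries and at 12.6 and 15 CPM in Y665F. Serpina3g, an intracellular protease inhibitor, stood at 4.13 and 8.47 CPM in WT and 87.5 and 93.5 CPM in Y665F. Rag2 fell from 27.9 and 46.6 to 7.09 and 3.12 CPM (-2.89), and the B-cell kinase Blk stood at 10.3 and 10.6 against 0.788 and 0 CPM.

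Among granulocyte-monocyte progenitors 701 of 9810 genes were higher (7.15%) and 975 lower (9.94%). Ly6a, the stem cell antigen Sca-1, stood at 0.998 and 1.83 CPM in WT and 28.9 and 26.5 CPM in Y665F. Pf4, a platelet chemokine, rose from 6.99 and 12.8 to 49.8 and 247 CPM (3.83). Pycr1, an enzyme of proline synthesis, fell from 11 and 9.13 to 1.8 and 1.18 CPM (-2.69). In monocyte and dendritic barcodes 247 of 8638 were higher (2.86%) and 442 lower (5.12%), with Itga2b at 1.44 and 0 against 10.7 and 33.3 CPM and Tuba1a, an alpha tubulin, at 39 and 31.6 against 6.3 and 5.28 CPM (-2.60). Platelet and neutrophil genes were among those with the highest fitted values in both myeloid gates. However, Itga2b, S100a8, S100a9 and Camp in the monocyte gate, and Camp in the granulocyte-monocyte gate, entered through Y665F and had to differ.

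In early erythroid barcodes 1203 of 10469 genes were higher (11.5%) and 1548 lower (14.8%). Podxl stood at 0.556 and 0 CPM in WT and 18.4 and 9.63 CPM in Y665F, and Rrm2 fell from 272 and 235 to 52.5 and 40.3 CPM (-2.44). Aldoa fell from 656 and 696 to 146 and 75.7 CPM (-2.59), and the beta tubulin Tubb2a from 21.5 and 19.4 to 4.61 and 2.19 CPM (-2.40). In the Hba-a1/Hbb-bs gate, with 52, 167, 58 and 80 barcodes per library, 597 of 5159 were higher (11.6%) and 575 lower (11.1%). Gng11, a G-protein gamma subunit, was at 0 in both WT libraries and at 22.4 and 33.9 CPM in Y665F, and Tubb2a fell from 50.2 and 47.8 to 3.2 and 0 CPM (-4.75).

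The megakaryocyte gate had 154 of 6607 genes higher (2.33%) and 333 lower (5.04%). Timp3, an inhibitor of metalloproteinases, stood at 2.41 and 10.1 CPM in WT and 114 and 52.5 CPM in Y665F, Podxl was at 0 in both WT libraries and at 30.8 and 17.1 CPM in Y665F, and Aldoa fell from 659 and 663 to 188 and 97 CPM (-2.21). The B-lineage gate had the fewest calls by share, 24 of 7139 higher (0.336%) and 37 lower (0.518%). Rrm2 fell there from 673 and 753 to 90 and 85.7 CPM (-3.02, adjusted p = 0.00155). Bok, a BCL2 relative, fell from 35.8 and 84.5 to 10 and 4.97 CPM (-3.00, not without WT replicate 2), and Slc18a2, a vesicular amine transporter, stood at 0 and 2.96 against 25 and 54.7 CPM.

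Of 4138 genes tested in all 8 gates, 5 were called higher in each, some of them only through Y665F as given above (Camp, S100a9, Socs2, Gm10076 and 2900097C17Rik) and 5 lower in each (Cd81, Cops6, Eif5a, Gnb2 and Nutf2). Gm10076, 2900097C17Rik, Cd81, Cops6, Gnb2 and Nutf2 lie outside the naming rule and were chosen after their values were seen. Under the length offset Camp was not called in the stem gate, nor Gm10076 in the stem and B-lineage gates. A further 9 genes were higher and 26 lower in exactly 7 gates, with Rps9 and mt-Atp8 among the former and Gapdh, Rrm2 and Aldoa among the latter.

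**Figure D5:**
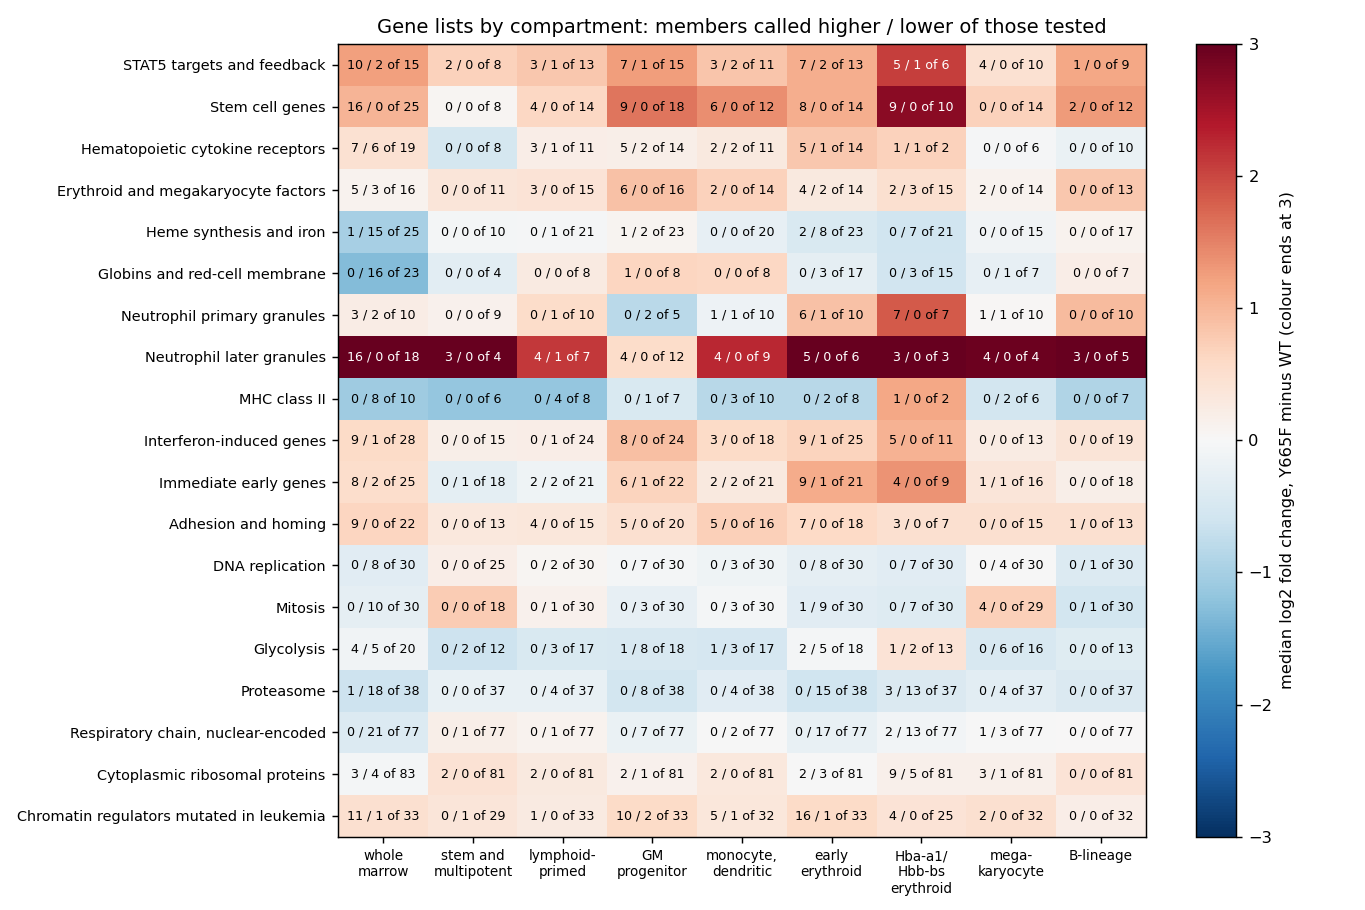
Gene lists (lines) by whole marrow and gate (columns): members called higher / lower of those tested, with the colour showing the median log2 change, Y665F minus WT. STAT5 targets are 7 / 1 of 15 in granulocyte-monocyte progenitors (7.15% / 9.94% of all genes tested), with Socs2 and Cish needing Y665F to pass the low-count filter. In the stem gate they are 2 / 0 of 8 (0.403% / 0.886% of all genes), Socs2 and Cish, which both needed Y665F to pass it. Respiratory chain genes are 0 / 17 of 77 in early erythroid barcodes (11.5% / 14.8% of all genes). Counts within gates include members that passed the low-count filter through 1 genotype alone.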

How the data were processed

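Droplet libraries of bone marrow were analysed from the deposited count matrices (whole-number UMI counts per gene and barcode). Per the labels the authors used Cell Ranger 5.0 and Seurat 4.0 with mm10, the file headers name cellranger 6.0.0, and the kit is given as a 3′ kit in the labels and a 5′ kit in the methods. Barcodes with under 200 genes or over 10% mitochondrial counts were removed, then doublets at 0.8% per 1000 barcodes by the share of simulated doublets among 30 neighbours. Log values per 10000 UMIs gave a mean score over each lineage's markers, and a barcode joined a gate with a score of at least 0.5, a lead of 0.25 over the next lineage and 2 markers detected. Gates with at least 50 barcodes in each library were tested. Between 2.44% and 12.1% of a gate's barcodes lay near the threshold.

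Counts were summed per library and per gate. edgeR 4.0.16 (R 4.3.3, TMM, quasi-likelihood, Benjamini-Hochberg) was fitted to all 6 marrow libraries, and gate barcodes were tested the same way. Y665H so entered the estimate of the spread, the low-count filter, the TMM scaling and the length offset. The marker scores of the gates were also scaled over the barcodes of all 6. An exact permutation test of 2 against 2 cannot go below p = 0.333. Transcript length came from GENCODE for 32235 of 32285 genes (99.8%). Log2 changes are Y665F minus WT, and CPM are counts scaled by TMM-adjusted library totals. Values with gate shares set to the WT mean are log2 ratios of CPM + 1 without a test, and their CPM are scaled by plain totals without TMM.

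Genes named are the 12 highest and 12 lowest in whole marrow and 5 and 5 per gate (called, log2 change over 1, at least 10 CPM in the higher group, groups apart, none of a gate's own markers, no Gm or Rik names, receptor segments or sex-linked genes), up to 5 called members of each list, and a fixed few. The 38 lists (1000 members) and these rules were chosen with earlier results of these data known. Alternatives were DESeq2 1.42.0, total-count scaling, another low-count filter, every deposited barcode, a common UMI floor of 1179, 4 libraries only, a length offset, a replicate block, stricter gates and each library left out. Some genes are not reported here.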

Additional observations from a re-analysis of the deposited data

Results flagged for a closer look

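Some genes were called in opposite directions in 2 gates, and the difference between the gates was not tested in any of them. Pkm, pyruvate kinase, fell in granulocyte-monocyte progenitors (-1.26, adjusted p = 0.00742, edgeR). In the Hba-a1/Hbb-bs erythroid gate Pkm stood at 5.8 and 8.69 CPM in WT and 51.3 and 64.4 CPM in Y665F, a fitted change of 2.93. The difference was -4.19 as granulocyte-monocyte minus Hba-a1/Hbb-bs. The histone gene Hist1h2ae rose in the stem and multipotent gate (1.51, adjusted p = 0.0435) and in the megakaryocyte gate (1.42, adjusted p = 0.00356) and fell in the Hba-a1/Hbb-bs gate (-0.67, adjusted p = 0.0352). The difference was 2.18 as stem minus Hba-a1/Hbb-bs and -2.09 as Hba-a1/Hbb-bs minus megakaryocyte. Ube2c, a ubiquitin-conjugating enzyme of mitosis, rose in the megakaryocyte gate (1.05, adjusted p = 0.0401) and fell in the early erythroid gate (-0.65, adjusted p = 0.045) and the Hba-a1/Hbb-bs gate (-0.97, adjusted p = 0.00787), differences of -1.70 and -2.02 as erythroid minus megakaryocyte. Without Y665F replicate 2 the calls of Pkm in granulocyte-monocyte progenitors, Hist1h2ae in the stem gate and Ube2c in the megakaryocyte gate were lost, and without WT replicate 1 those of Hist1h2ae in the stem gate and Ube2c in the megakaryocyte gate. Without WT replicate 2 the Ube2c call in the megakaryocyte gate was lost. Under the length offset the calls of Hist1h2ae in the stem gate and of Ube2c in both erythroid gates were lost. Pkm lay under the low-count filter in both WT libraries of the Hba-a1/Hbb-bs gate and passed it there only through Y665F. Its call in that gate so had to be a rise, and neither 2.93 nor -4.19 supports a difference.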

How the results depend on the processing

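No called gene named in the text and no called gate share changed its sign under any setting tried. Values near 0 did, such as the ribosomal list (-0.05, and 0.25 with the length offset) and the B-lineage share (-0.16, and 0.29 without Y665F replicate 2). With each library left out in turn the whole marrow calls ranged from 1712 (without Y665F replicate 2) to 4136, with 794 to 1694 higher and 918 to 2442 lower, and scaling by total counts gave 1465 lower. Of 201 called genes named in whole marrow 114 kept their call under every setting, 169 under the length offset, 187 under DESeq2, 164 without WT replicate 2 and 138 without Y665F replicate 2. Of the calls named in the gates 493 of 711 held under the length offset, 445 of 634 under DESeq2, 358 of 710 without WT replicate 2 and 277 of 706 without Y665F replicate 2. With a library left out the calls ranged from 16 to 183 (64 in the full fit) in the stem gate, 41 to 822 (507) in lymphoid-primed, 443 to 2182 (1676) in granulocyte-monocyte, 26 to 904 (689) in monocyte, 1058 to 3192 (2751) in early erythroid, 192 to 1005 (1172) in Hba-a1/Hbb-bs, 81 to 775 (487) in megakaryocyte and 8 to 364 (61) in B-lineage barcodes. The lowest was without Y665F replicate 2 in 6 of these 8, and without WT replicate 2 in the early erythroid and B-lineage gates. DESeq2 called 42 in the stem, 184 in the lymphoid-primed, 901 in the granulocyte-monocyte, 274 in the monocyte, 477 in the Hba-a1/Hbb-bs and 211 in the megakaryocyte gate. The length offset gave 32 in the stem, 1604 in the early erythroid, 291 in the megakaryocyte and 40 in the B-lineage gate, and the stricter gate 32 in the stem, 165 in the lymphoid-primed, 308 in the Hba-a1/Hbb-bs and 180 in the B-lineage gate. The cause was not tested in any of these, though fewer barcodes enter a stricter gate and fewer samples a fit without a library.

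Gate shares lost their call with the stricter gate for stem (1.39) and megakaryocyte (1.40) barcodes, and gained one when thinned to 1000 UMIs for lymphoid-primed (-1.08), monocyte (-1.11) and T and NK (-1.51) barcodes and with doublets kept for granulocyte-monocyte progenitors (0.80). With a library left out they ranged from 1.07 to 1.67 for stem, 1.28 to 1.39 for megakaryocyte, -2.48 to -1.45 for early erythroid (without Y665F replicate 1 and without Y665F replicate 2) and -1.97 to -1.53 for Hba-a1/Hbb-bs barcodes.

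Replicate numbers are shared by the groups, but nothing in the labels pairs them. The deviations of same-numbered libraries correlated at 0.305 for WT and Y665H, 0.0396 for WT and Y665F and 0.30 for Y665H and Y665F over 13639 genes, so the numbers were not taken as pairs. A replicate block gave 2445 higher and 2454 lower genes in whole marrow, 149 calls in the stem and 358 in the B-lineage gate, and with the length offset as well 153 and 452. All 201 named whole marrow calls and 710 of 711 in the gates held under the block, and Pim1 gained a call in the stem gate (adjusted p = 0.0437).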

Other observations

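Igkc, the kappa light chain constant region made in quantity by plasma cells, stood at 1.38 and 1.22 CPM in WT and at 21.4 and 1.66 CPM in Y665F, so its log2 change of 3.15 (adjusted p = 0.0223, edgeR) rested on Y665F replicate 1, and it was lost without that library, without either WT library, under DESeq2 and under the length offset. Tcrg-C1, a T-cell receptor gamma constant region, stood at 0.833 and 0.578 CPM in WT and 45.8 and 4.82 CPM in Y665F early erythroid barcodes, where it passed the low-count filter only through Y665F. Tmem121, a membrane protein gene, was among the lowest in whole marrow (5.74 and 14.7 against 1.22 and 1.57 CPM; -2.87), in lymphoid-primed barcodes (29.9 and 84.7 against 6.3 and 3.12 CPM; -3.62) and in B-lineage barcodes (13 and 51.9 against 0 and 2.48 CPM; -4.89, not without WT replicate 2).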
